A study of Mus musculus with 7 samples.

Results

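Malignant GFP+ EpCAM+ cells were compared with the GFP- EpCAM- cells of such tumours, with 1 library on each side, over every gene that had at least 20 counts summed over the 2 libraries. This left 9748 of 13236 genes, after 21 row names that had been turned into dates were set aside. The series holds 7 libraries of sorted mouse cells, and the 4 GFP and EpCAM sorts form a count table of their own. The tumours were raised in female BALB/c mice by placing 100000 4T1-GFP cells, a BALB/c mammary carcinoma line that carries green fluorescent protein, into a mammary fat pad, and were taken 4 weeks later from mice 12 weeks old. Cells bearing Ter119, a red cell antigen, or CD45, the common leukocyte antigen, were gated out before the split by GFP and by the epithelial surface protein EpCAM. All 4 sorts therefore share strain, sex, tumour line and time, and no library of the table comes from a mouse without a tumour. How many animals gave each library, and whether the line is a clone, are not stated in the sources used here. The GFP+ EpCAM+ library is called carcinoma below and the GFP- EpCAM- library stroma.

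In a mammary carcinoma the malignant epithelium keeps keratin filaments, tight and adherens junctions and laminin-based anchorage, while the stroma is a mixture of fibroblasts that lay down fibrillar collagen, endothelium that lines the vessels, pericytes that wrap it and cells of fat, nerve and muscle caught in the growing mass. Both sides signal to each other through growth factors, chemokines and matrix, and both need the same machinery of translation, respiration and protein turnover. 4T1 is widely used because its tumours spread from the fat pad in immunocompetent mice.

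The carcinoma library held 2384264 counts and the stroma library 1338608, and levels are given as normalised CPM, the CPM scale taken over library totals after TMM scaling. At these depths 3 counts equal 1.21 CPM in carcinoma and 2.33 in stroma. A gene was called higher or lower in carcinoma when the whole 95% counting interval of its ratio lay beyond 2-fold, within 2-fold when the whole interval lay inside that range, and unresolved otherwise. A library at 0 counts was set to 3, so that such a fold is a bound. With 1 library a side there is no spread between replicates, so no test across samples was made. The intervals, printed in parentheses, cover counting error only, and each fold describes these libraries.

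The markers of the sort went with its label. Epcam, which encodes the adhesion protein used in the gate, had 727 counts in carcinoma and 46 in stroma, with 675 in the GFP- EpCAM+ sort and 54 in the GFP+ EpCAM- sort. Pecam1, which encodes the endothelial adhesion molecule CD31, had 10 counts in carcinoma, 1917 in stroma, 34 in GFP- EpCAM+ and 19 in GFP+ EpCAM-. The 2 genes thus separated the libraries in opposite directions, Epcam 8.196-fold (6.08 to 11.3) higher and Pecam1 369.7-fold (201 to 772) lower in carcinoma. On GRCm38, Epcam is a plus-strand gene of chromosome 17 (87635979 to 87651129) and Pecam1 a minus-strand gene of chromosome 11 (106654217 to 106750628).

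The stroma library was a mixture. Endothelial markers summed to 6110.0 normalised CPM in stroma and 17.7 in carcinoma, fibroblast markers to 3694 and 35.9, pericyte markers to 2435 and 22.2 and smooth muscle markers to 995 and 4.03. Markers of other cell types were there too: the leukocyte sum was 274 in stroma against 52.8 in carcinoma, the basophil and mast cell sum 245 against 3.63, and the fat, Schwann and skeletal muscle sums were 2583, 142 and 733 against 9.67, 1.21 and 0.806. The fat sum rested on Fabp4, which capillary endothelium also expresses, since Adipoq had 7 counts and Plin1 0 in stroma. Ptprc, which encodes CD45, had 29 counts in stroma and 0 in carcinoma. Pdpn, a common fibroblast marker, had 3 counts in stroma and 0 in carcinoma, and of 9 erythroid genes 2 were listed and 0 passed the filter. The epithelial sum was 6082 CPM in carcinoma, 994 in stroma and 9745 in GFP- EpCAM+. Epithelial transcripts were thus present in the stroma library at a lower level. In bulk RNA, fewer cells of a type and less RNA per cell cannot be told apart, and this holds for every difference below.

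**Figure D1:**
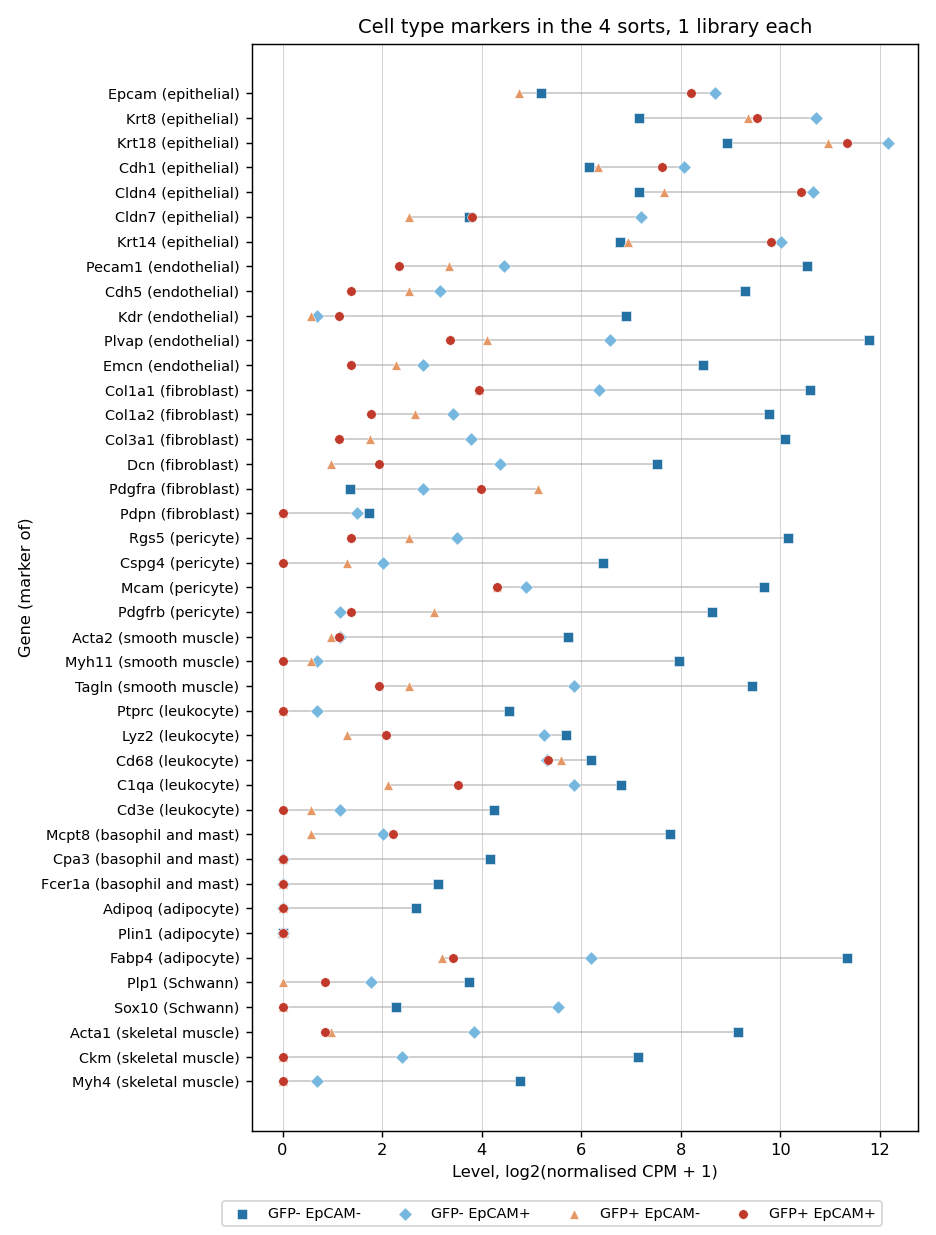
Cell type markers in the 4 sorts, with log2 of normalised CPM plus 1 on the x axis, 1 row per gene and 1 point per library. Carcinoma points lie to the right of stroma points for the epithelial genes such as Epcam and Krt18 and to the left for the endothelial, pericyte and muscle genes, while Pdgfra lies higher in carcinoma.

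Of the 9748 genes, 624 (6.4%) were higher in carcinoma, 1452 (14.9%) lower, 3085 (31.6%) within 2-fold and 4587 (47.1%) unresolved. At 500 or more summed counts the shares were 12.5% higher, 14.1% lower, 58.2% within 2-fold and 15.2% unresolved. The member counts of each gene list below are to be read beside these shares. Over all genes the median log2 ratio was 0.05, and 30.1% of the 2076 calls beyond 2-fold were in the carcinoma direction. Genes within 2-fold took 56.9% of the carcinoma counts and 50.7% of the stroma counts. Genes higher in carcinoma took 17.0% of its counts and 4.07% of those of stroma, and genes lower in carcinoma 4.04% and 27.4%. The filter fell in a dense stretch, with 92 and 108 genes at 18 and 19 summed counts and 112 and 81 at 20 and 21. A gene found in only 1 of the libraries passes the filter through that library and so had to differ.

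**Figure D2:**
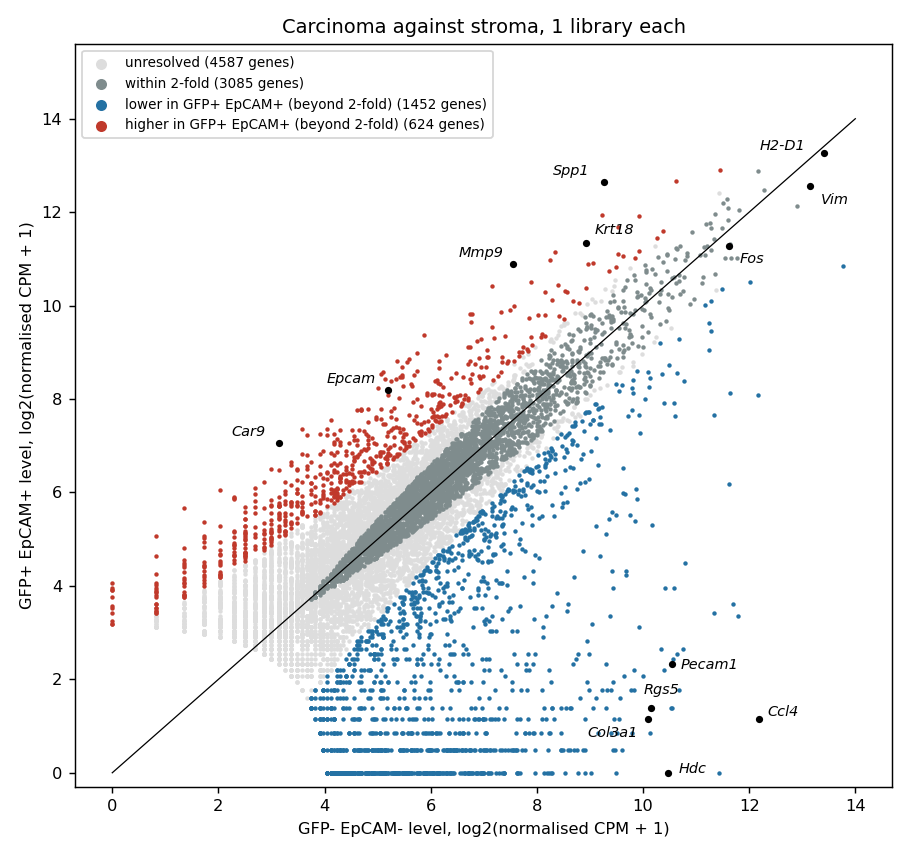
Level of each of the 9748 genes in carcinoma (y axis) against stroma (x axis), both as log2 of normalised CPM plus 1, coloured by call, with the line of equal level. Genes higher in carcinoma form a band close to the line, and genes lower in carcinoma reach down to a level of 0.

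The 2 directions differed in size. Among genes with at least 500 counts in the library where they were higher, a subset taken after the values were seen, 163 were higher in carcinoma with a median fold of 3.81 and a largest fold of 11.5, and 161 were lower with a median of 16.4 and a largest of 3829. Beyond 20-fold there were 0 genes on the carcinoma side and 76 on the stroma side, and 60 of the latter were beyond 100-fold. The cut is in counts, so it lies at a lower CPM in the deeper carcinoma library than in stroma. The value set for 0 counts, 1.21 CPM in carcinoma and 2.33 in stroma, differs likewise. Over all calls, 11 of the 624 higher genes had 0 counts in stroma and 323 of the 1452 lower genes had 0 counts in carcinoma. Those 163 carcinoma genes were thus each detected in stroma, whereas many abundant stroma genes were at or near 0 in carcinoma. Epithelial markers were also detected in the stroma library, and their part in this difference was not tested.

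**Figure D3:**
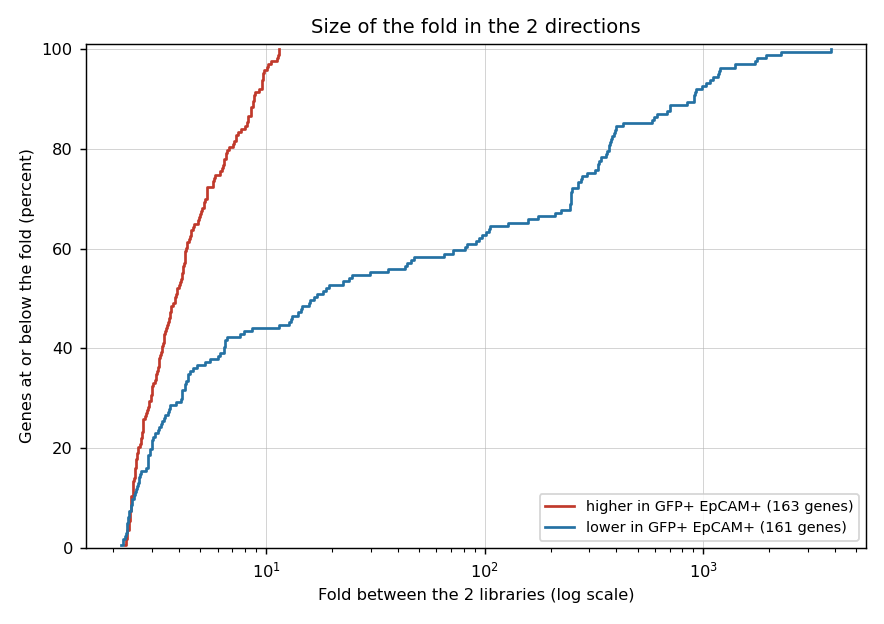
Cumulative share of genes (y axis, percent) at or below a given fold (x axis, log scale) for the 163 genes higher and the 161 genes lower in carcinoma that had at least 500 counts in the higher library. The carcinoma curve ends at 11.5-fold, and the stroma curve runs to 3829-fold, with genes at 0 counts placed at their bound.

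Keratin and junction genes were mostly higher in carcinoma. Of 28 genes of this kind 24 passed the filter, and 17 were higher in carcinoma, 1 lower, 1 within 2-fold and 5 unresolved, with a median log2 ratio of 2.40 against 0.05 over all genes. Krt18, a keratin of simple epithelia, had 6394 counts in carcinoma and 622 in stroma and was 5.33-fold (4.91 to 5.80) higher. Its partner Krt8 was 5.20-fold (4.47 to 6.09) higher, on 1836 and 183 counts. Krt7, another simple-epithelium keratin, stood at 1457 CPM in carcinoma and 237 in stroma. These 3 keratins thus had similar ratios, between 5.20 and 6.15. Cldn4, which encodes a tight junction claudin, had 3393 and 182 counts and was 9.67-fold (8.33 to 11.3) higher. It differed more between the EpCAM gates than between the GFP gates, with 1367 CPM in carcinoma and 1614 in GFP- EpCAM+ beside 141 in stroma and 202 in GFP+ EpCAM-. Ovol1 and Esrp1, a transcription factor and a splicing factor of epithelia, were 14.5-fold (3.84 to 123) and 10.8-fold (4.83 to 30.0) higher, the former on 2 stroma counts. Cdh1, which encodes E-cadherin, had 485 and 90 counts and was 2.79-fold (2.23 to 3.54) higher. The member called lower was F11r, a junction adhesion molecule that endothelium also carries, with 339 counts in carcinoma and 525 in stroma, 2.99-fold (2.60 to 3.43) lower. Tjp1, a scaffold of tight junctions in both cell classes, was unresolved at a ratio of 0.583 (0.433 to 0.786). Cldn7 was low in both, with 32 and 16 counts.

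The promoters of 3 of these genes are shown because most members with a promoter hold the same short motif. All 3 were called higher, which was not so for every holder. The sequences are from RefSeq on GRCm38.p6, from 250 bases before to 50 after the annotated start, 5′ to 3′ on the strand of the gene, and capitals mark the E-box CAGGTG in either orientation. Epcam at chr17:87635729-87636028 is on the plus strand, and Cldn4 at chr5:134946885-134947184 and Krt8 at chr15:102004293-102004592 are on the minus strand.
Epcam: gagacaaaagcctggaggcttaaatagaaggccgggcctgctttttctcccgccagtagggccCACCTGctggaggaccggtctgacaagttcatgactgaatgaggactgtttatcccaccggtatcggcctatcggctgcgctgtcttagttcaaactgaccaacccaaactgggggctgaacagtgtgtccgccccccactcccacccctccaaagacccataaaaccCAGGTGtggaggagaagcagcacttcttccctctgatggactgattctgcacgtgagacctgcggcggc
Cldn4: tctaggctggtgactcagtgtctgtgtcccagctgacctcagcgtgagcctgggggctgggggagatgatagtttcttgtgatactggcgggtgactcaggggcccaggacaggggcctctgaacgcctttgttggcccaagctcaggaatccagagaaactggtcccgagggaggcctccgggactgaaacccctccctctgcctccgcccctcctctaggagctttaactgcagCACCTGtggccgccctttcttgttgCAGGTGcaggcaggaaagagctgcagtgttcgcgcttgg
Krt8: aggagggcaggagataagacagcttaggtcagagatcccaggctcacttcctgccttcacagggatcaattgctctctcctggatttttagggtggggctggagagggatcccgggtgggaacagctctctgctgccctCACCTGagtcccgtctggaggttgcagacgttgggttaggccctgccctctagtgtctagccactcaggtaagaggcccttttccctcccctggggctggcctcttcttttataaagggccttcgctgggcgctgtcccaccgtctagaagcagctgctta
Of the 16 keratin and junction genes that passed the filter and had a RefSeq promoter, 13 held the motif on either strand. Holders included F11r, called lower, Spint2, within 2-fold, and Cldn7 and Ocln, unresolved, and the others were higher. Spint1 was higher without the motif. It was present in 20.4% of all 7471 genes of the comparison with a promoter and in 20.2% of 32851 promoters of this length. Among genes of the comparison with a promoter, the share was 29.0% of 448 higher in carcinoma, 21.6% of 1054 lower and 19.0% of 2401 within 2-fold. Epcam and Cldn4 held it 2 times and Krt8 1 time. CAGGTG is known as a core recognised by E-box-binding repressors of epithelial genes. A match describes the letters in this window and shows no binding.

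Basal epithelial genes went the same way in part. Of 10 members passing the filter 5 were higher, 0 lower, 1 within 2-fold and 4 unresolved, with a median log2 ratio of 2.09. Krt14, a keratin of basal and myoepithelial cells, stood at 898 CPM in carcinoma, 109 in stroma, 121 in GFP+ EpCAM- and 1039 in GFP- EpCAM+, and was 8.26-fold (6.96 to 9.87) higher in carcinoma than in stroma. Sfn, which encodes stratifin of stratified epithelia, was 9.60-fold (7.38 to 12.7) higher. Itgb4, the laminin-binding integrin chain of hemidesmosomes, had 1567 and 187 counts and was 4.35-fold (3.73 to 5.08) higher. Of the laminin chains that it binds, Lamb3 was 7.63-fold (5.66 to 10.5) higher, while Lama3 was unresolved at 2.51 (1.84 to 3.49). Krt5, the usual partner of Krt14, had 11 counts in carcinoma and 14 in stroma and was unresolved. Krt14 and its partner therefore differed within the carcinoma library, where Krt5 was near the limit of detection. The ratios of Itga6 and Dst, members of the same list, also pointed to stroma, and neither was called lower. Trp63 did not pass the filter, with 10 counts in carcinoma and 3 in stroma. Mammary luminal and milk genes were mostly too low, with 5 of 15 passing the filter. Gata3, the luminal transcription factor, was 7.91-fold (4.98 to 13.3) higher on 290 and 19 counts. Areg, an EGF receptor ligand, was within 2-fold at 1.37 (1.11 to 1.69), and Muc1, Ltf and Esr1 were unresolved on 67, 49 and 24 carcinoma counts.

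The 15 genes with the highest lower bound of the carcinoma-to-stroma ratio mixed secreted, junctional and cytoskeletal products. Spp1, which encodes the matrix cytokine osteopontin, led them, with 15966 counts in carcinoma, 786 in stroma, 14718 in GFP+ EpCAM- and 6444 in GFP- EpCAM+, 10.5-fold (9.80 to 11.3) higher in carcinoma than in stroma. Mmp9, a gelatinase, had 4714, 240, 1935 and 2441 counts in the same order and was 10.2-fold (8.94 to 11.6) higher. Both were lowest in the stroma library of the 4. Gpa33, a cell surface antigen of intestinal epithelium, was 11.5-fold (9.10 to 14.7) higher, and Tns4, a focal adhesion tensin, 11.2-fold (8.48 to 15.1). Syt8, a synaptotagmin, was 11.5-fold (8.45 to 15.95) higher, Anxa8, an annexin, 11.3-fold (8.28 to 15.8), and Lad1, which encodes the basement membrane anchor ladinin, 9.58-fold (7.501 to 12.4). Kcnn4, a calcium-activated potassium channel, was 9.80-fold (7.57 to 12.9) higher and Ankrd1, a target of the YAP coactivator, 10.03-fold (7.41 to 13.9). Fermt1, the epithelial kindlin that activates integrins, had 162 counts in carcinoma and 4 in stroma, 21.0-fold (8.05 to 78.0) higher, and Tmem184a, a transmembrane protein, 124 and 2, 32.2-fold (8.71 to 268) higher. Car9, Mmp3, Il1a and Cldn4 completed the 15 and are described with their groups. Tns4, Syt8 and Ankrd1 stood in GFP+ EpCAM- at 516, 422 and 309 CPM and in GFP- EpCAM+ at 255, 249 and 226, so the GFP+ sort was the higher for these 3.

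Cell division genes were called higher in carcinoma or left unresolved, with the exception of Pcna. Of 22 mitosis genes 11 were higher, 0 lower, 0 within 2-fold and 11 unresolved (median log2 ratio 1.58), and of 21 replication genes 10 were higher, 0 lower and 1 within 2-fold (median 1.38). Of all genes 6.4% were higher and 47.1% unresolved. Top2a, the topoisomerase that untangles replicated chromosomes, had 680 counts in carcinoma and 85 in stroma and was 4.15-fold (3.31 to 5.26) higher. Plk1, a mitotic kinase, was 5.51-fold (3.79 to 8.31) higher and Birc5, which encodes survivin, 3.05-fold (2.40 to 3.93). Ccnf rested on 1 stroma count and was 18.7-fold (3.14 to 758) higher by the counts as they stand. Of the replication genes, Mcm7 and Mcm5, subunits of the replicative helicase, were 3.20-fold (2.58 to 4.02) and 2.70-fold (2.14 to 3.44) higher, and the licensing factor Cdt1 4.77-fold (3.36 to 6.97). Pcna, the sliding clamp that also serves in DNA repair, was within 2-fold at 1.02 (0.890 to 1.18), on 598 and 303 counts.

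Cyclins and their inhibitors split by member. Of 12 passing the filter 1 was higher, 4 lower, 2 within 2-fold and 5 unresolved, with a median of -0.05 that changed sign to 0.07 with total-count scaling and 0.67 with at least 100 counts. Ccnd1, the cyclin of entry into the cycle, stood at 1719.6 CPM in carcinoma and 652 in stroma, 2.64-fold (2.45 to 2.84) higher. Its relative Ccnd2 went the other way at 5.95-fold (4.42 to 8.09) lower, and Ccnd3 was within 2-fold at 0.818 (0.702 to 0.954). Cdkn1a, which encodes the inhibitor p21, had 153 counts in carcinoma and 1036 in stroma and was 13.1-fold (11.01 to 15.58) lower. Cdkn1c, the inhibitor p57, had 0 and 26 counts, at least 16.7-fold lower, and Rb1, the retinoblastoma gene, was 4.50-fold (2.39 to 8.87) lower on 15 and 35 counts.

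Hypoxia genes were called higher in part. Of 16 passing the filter 3 were higher, 1 lower, 4 within 2-fold and 8 unresolved, with a median of 0.75, where 6.4% of all genes were higher, 31.6% within and 47.1% unresolved. Car9, the hypoxia-induced carbonic anhydrase, had 327 counts in carcinoma, 10 in stroma, 353 in GFP+ EpCAM- and 75 in GFP- EpCAM+, and was 17.0-fold (9.10 to 35.7) higher in carcinoma than in stroma. Egln3, an oxygen-sensing hydroxylase, was 6.72-fold (4.90 to 9.43) higher, and Vegfa, the main endothelial growth factor, 4.33-fold (3.21 to 5.97) on 401 and 48 counts. Hilpda, a lipid droplet protein of hypoxic cells, went the other way, with 130 and 402 counts, 5.96-fold (4.88 to 7.32) lower. Ndrg1 and Ddit4, stress-responsive genes on the same list, were within 2-fold at 1.51 (1.37 to 1.68) and 0.706 (0.645 to 0.773). The Car9 promoter is printed because this gene has the largest ratio of the list and carries the short hypoxia response core near its start. It lies at chr4:43506776-43507075 on the plus strand of GRCm38.p6, from RefSeq, with the core ACGTG in either orientation in capitals.
Car9: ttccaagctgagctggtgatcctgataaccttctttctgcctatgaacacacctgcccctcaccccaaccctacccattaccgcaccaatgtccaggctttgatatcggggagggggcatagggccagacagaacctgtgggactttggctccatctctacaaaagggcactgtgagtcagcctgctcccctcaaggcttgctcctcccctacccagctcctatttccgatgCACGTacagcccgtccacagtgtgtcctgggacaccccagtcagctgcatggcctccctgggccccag
The core was present in 10 of the 13 hypoxia genes that passed the filter and had a RefSeq promoter. Of these holders Car9, Egln3 and Vegfa were higher, Hilpda lower, Ddit4 and Egln1 within 2-fold and the others unresolved. It was present in 29.8% of all 7471 genes of the comparison with a promoter and in 19.6% of all promoters. Its share was 26.8% among higher, 25.0% among lower and 32.4% among within 2-fold genes of the comparison.

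Glycolysis genes were divided. Of 13 genes passing the filter 2 were higher, 1 lower, 6 within 2-fold and 4 unresolved, with a median of 0.27, and 4 of the 8 with at least 500 summed counts were within, against 58.2% of all genes at that depth. Ldha, lactate dehydrogenase, stood at 937 CPM in carcinoma and 804 in stroma, a ratio of 1.16 (1.08 to 1.25), and the aldolase gene Aldoa at 0.825 (0.759 to 0.897). Pkm, pyruvate kinase, was unresolved at 2.05 (1.94 to 2.17). The gatekeeping kinases Hk2 and Pfkl were 3.27-fold (2.20 to 5.02) and 2.88-fold (2.43 to 3.43) higher. Slc16a3, a lactate exporter, had 3 counts in carcinoma and 161 in stroma and was 103-fold (34.8 to 507) lower, opposite to those kinases. Cholesterol synthesis had 4 of 15 higher, 0 lower, 2 within 2-fold and 9 unresolved (median 1.16). Sqle, squalene epoxidase, was 8.74-fold (5.00 to 16.7) higher, Msmo1 5.13-fold (3.62 to 7.48) and the isoprenoid enzyme Fdps 4.49-fold (3.62 to 5.64). Hmgcs1, near the start of the pathway, was within 2-fold at 1.55 (1.23 to 1.97).

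Class II antigen presentation was higher in carcinoma. Of 7 genes 5 were higher and 2 unresolved, with a median log2 ratio of 2.0. Cd74, the invariant chain that escorts class II molecules, had 9588 counts in carcinoma, 1243 in stroma, 4418 in GFP+ EpCAM- and 6499 in GFP- EpCAM+. The class II chain H2-Aa had 8213, 945, 4198 and 5028 in the same order. Stroma was the lowest of the 4 libraries for both, also as CPM, Cd74 being 4.00-fold (3.77 to 4.25) and H2-Aa 4.51-fold (4.21 to 4.83) higher. H2-DMa and H2-DMb1, which load peptide, were 5.08-fold (4.31 to 6.03) and 3.61-fold (3.07 to 4.27) higher, H2-Eb1 2.98-fold (2.78 to 3.20), and H2-Ab1 was unresolved at 2.09 (1.93 to 2.26). Ciita, the transactivator of these genes, was unresolved on 31 and 4 counts. Leukocyte markers summed to 52.8 CPM in carcinoma and 274 in stroma, with Ptprc at 0 in carcinoma. Cd68, which was unresolved, made up 39.1 of the carcinoma sum. A part of leukocytes in the class II counts was not tested.

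Class I presentation genes were mostly within 2-fold. Of 15 class I genes 10 were within 2-fold, 0 higher, 1 lower and 4 unresolved, and 9 of the 11 with at least 500 summed counts were within, against 58.2% of all genes at that depth. H2-D1, a classical class I heavy chain, had 24309 counts in carcinoma and 14047 in stroma, or 9794 and 10914 CPM, a ratio of 0.897 (0.879 to 0.916). Its light chain B2m was at 1.62 (1.56 to 1.68) and the immunoproteasome subunit Psmb9 at 0.997 (0.906 to 1.10). H2-D1 and H2-K1 are close in sequence, and the handling of reads that fit both is not stated. H2-T23, a non-classical heavy chain, was 3.07-fold (2.51 to 3.76) lower in carcinoma. Of 23 interferon-stimulated genes 12 were within 2-fold, 1 higher, 1 lower and 9 unresolved (median 0.40), and 10 of the 16 with at least 500 summed counts were within, close to the 58.2% of all genes. Irf1 and Irf7, transcription factors of the response, were within at 1.36 (1.26 to 1.46) and 0.562 (0.500 to 0.632), and Isg15, a ubiquitin-like modifier, at 0.692 (0.623 to 0.769). Gbp2, a guanylate-binding protein, was 2.68-fold (2.44 to 2.95) higher and the antiviral membrane protein Ifitm2 3.43-fold (3.17 to 3.70) lower.

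Inflammatory mediators divided by gene. Of 24 passing the filter 7 were higher in carcinoma, 8 lower, 6 within 2-fold and 3 unresolved, with a median of 0.08 that became -0.14 with no filter. Il1a, an alarmin cytokine, had 370 counts in carcinoma and 15 in stroma and was 12.8-fold (7.65 to 23.1) higher. Tslp, an epithelial cytokine, was 8.88-fold (6.64 to 12.1) higher, the neutrophil chemoattractant Cxcl5 9.44-fold (5.62 to 17.1) and Lcn2, an iron-binding acute-phase protein, 5.38-fold (4.71 to 6.16). On the stroma side Il6 had 6 counts in carcinoma and 861 in stroma, 277-fold (127 to 756) lower. Cxcl12, the retention chemokine of stromal cells, had 0 and 387 counts, at least 249-fold lower, and Cxcl2, a neutrophil chemoattractant, 7.91-fold (7.16 to 8.75). Cxcl1, a close relative of Cxcl2, was shared, with 2013 CPM in carcinoma and 1763 in stroma and a ratio of 1.14 (1.09 to 1.20). Csf3, the granulocyte growth factor, was shared as well at 0.975 (0.860 to 1.11). Mediators that act on neutrophils were therefore found on both sides, Cxcl5 higher in carcinoma, Cxcl2 lower, and Cxcl1 and Csf3 within 2-fold.

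Complement genes split in the same manner, with 2 of 11 higher, 6 lower, 1 within 2-fold and 2 unresolved (median -1.63, or -0.77 with at least 100 counts). C3, the central component, had 2225 counts in carcinoma and 136 in stroma and was 8.48-fold (7.13 to 10.2) higher, and Clu, which encodes the complement-binding chaperone clusterin, 4.12-fold (3.73 to 4.57). Serping1, the C1 inhibitor, had 4 and 1891 counts and was 912-fold (355 to 3349) lower. C2 had 0 and 106 counts, at least 68.1-fold lower. The component C3 thus lay on the carcinoma side while the regulator Serping1 lay on the stroma side. Among genes of immune restraint, with 3 of 13 higher and 2 lower, Nos2, inducible nitric oxide synthase, was 6.38-fold (5.15 to 7.99) higher and Arg1, arginase, 9.10-fold (6.18 to 13.8) lower, so the arginine-consuming enzymes lay on opposite sides. Entpd1, which encodes the ectonucleotidase CD39, had 0 and 42 counts, at least 27.0-fold lower, and Cd47, the signal against phagocytosis, was within 2-fold at 1.47 (1.34 to 1.60).

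Fibrillar collagens and fibroblast genes were mostly lower in carcinoma. Of 15 fibroblast identity genes 13 were lower in carcinoma, 1 higher and 1 within 2-fold (median -6.02, or -7.29 with at least 100 counts), and of 8 fibrillar and associated collagens 6 were lower, 0 higher and 2 unresolved (median -4.85, or -6.62 with at least 100 counts and -3.20 with no filter). Col1a1, the main chain of type I collagen, had 36 counts in carcinoma and 1979 in stroma and was 106-fold (76.3 to 152) lower. Col3a1 had 3 and 1411 counts, 907-fold (309.7 to 4403) lower, and Col1a2 6 and 1124, 361-fold (165 to 986). These 3 chains were near the limit of detection in carcinoma except for Col1a1. Thy1, a surface glycoprotein of fibroblasts and vessels, was 376-fold (161 to 1161) lower, and the type VI chains Col6a2 and Col6a3 8.61-fold (7.44 to 9.98) and 265-fold (121 to 726) lower. Col5a1, a chain of the collagen that starts fibrils, was lower by a smaller fold, 7.22-fold (5.43 to 9.71). Col16a1 was unresolved at 1.49 (1.13 to 2.003). The exceptions were Fbln2, which encodes the elastic fibre protein fibulin, within 2-fold at 1.73 (1.56 to 1.91), and Pdgfra, a receptor widely used to mark fibroblasts. Pdgfra had 37 counts in carcinoma, 2 in stroma, 71 in GFP+ EpCAM- and 10 in GFP- EpCAM+, 9.59-fold (2.47 to 82.2) higher in carcinoma than in stroma.

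Genes known from resting fibroblasts were divided. Of 12 passing the filter 6 were lower in carcinoma, 3 higher, 2 within 2-fold and 1 unresolved, with a median of -2.997. With at least 100 counts the median turned to 0.47, with 2 members lower and 3 higher. Cd34 and Cd248, surface proteins of stromal and vessel-associated cells, were 247-fold (125 to 573) and 433-fold (119 to 3586) lower. Ly6a, which encodes the surface antigen Sca-1, was 2.30-fold (2.19 to 2.43) higher, on 7647 and 1721 counts, and Igfbp4, an IGF-binding protein, 3.64-fold (3.36 to 3.95). Pcolce2, an enhancer of procollagen cleavage, was 3.36-fold (2.32 to 5.01) higher. Ly6c1 and Gsn were within 2-fold at 1.38 (1.29 to 1.49) and 1.19 (1.08 to 1.32). Among EMT factors and mesenchymal genes 4 of 11 were higher, 4 lower, 2 within 2-fold and 1 unresolved (median -0.59, or 0.34 with at least 100 counts and -1.68 with no filter). S100a4, a calcium-binding protein also called fibroblast-specific protein, had 5627 counts in carcinoma and 414 in stroma and was 7.05-fold (6.38 to 7.81) higher. Fn1, fibronectin, was 2.35-fold (2.21 to 2.51) higher, and Vim, the intermediate filament of mesenchymal cells, was within 2-fold at 0.666 (0.650 to 0.682), on 14979 and 11666 counts. Some transcription factors of the list lay on the stroma side. Zeb1 had 5 and 75 counts, 28.9-fold (11.9 to 91.7) lower, Prrx1 0 and 103, at least 66.2-fold, and Snai2 0 and 23, at least 14.8-fold. Snai1 and Twist1 also passed the filter and were called neither higher nor lower. The carcinoma library therefore held abundant Vim, Fn1 and S100a4 together with Zeb1, Prrx1 and Snai2 at or near 0. This does not extend to Snai1 and Twist1.

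Basement membrane genes were divided. Of 16 passing the filter 8 were lower in carcinoma, 3 higher, 4 within 2-fold and 1 unresolved (median -1.08). The type IV collagen chains Col4a1 and Col4a2, the network of vessel walls and epithelia, had 690 and 498 counts in carcinoma and 4093 and 3347 in stroma, 11.4-fold (10.6 to 12.4) and 13.0-fold (11.8 to 14.3) lower. Nid1, the linker nidogen, was 615-fold (109.6 to 24373) lower and Lama4, the endothelial laminin chain, 238-fold (80.8 to 1159). Lama5 and Lamb1, laminin chains made by many epithelia, were within 2-fold at 1.57 (1.42 to 1.75) and 1.63 (1.45 to 1.83). Among the 3 on the carcinoma side were Lamb3, given above, and Col4a5, which had 31 counts in carcinoma and 0 in stroma. Col4a5 was at least 5.36-fold higher.

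Matricellular proteins and matrix enzymes were divided between the libraries. Of 13 matricellular genes 3 were higher, 5 lower, 3 within 2-fold and 2 unresolved (median 0.06, or -0.81 with no filter). Beside Spp1, the galectin gene Lgals1 was 2.71-fold (2.61 to 2.81) higher. Sparc, a collagen-binding protein, had 668 counts in carcinoma and 5929 in stroma and was 17.1-fold (15.8 to 18.6) lower, its relative Sparcl1 329-fold (188 to 638), the proteoglycan Bgn 369-fold (194 to 809) and periostin, Postn, 157-fold (84.9 to 329). Tenascin, Tnc, and thrombospondin, Thbs1, were within 2-fold at 1.47 (1.21 to 1.79) and 1.33 (1.17 to 1.52). Of 21 proteases and inhibitors 5 were higher, 7 lower, 4 within 2-fold and 5 unresolved (median -0.87). The stromelysins Mmp3 and Mmp10 had 404 and 182 counts in carcinoma and 14 and 8 in stroma, 14.96-fold (8.82 to 27.6) and 11.8-fold (5.86 to 27.7) higher. The collagenase Mmp13 was 8.72-fold (6.57 to 11.8) higher. The gelatinases separated, with Mmp9 higher as given above and Mmp2 52.7-fold (17.4 to 261) lower on 3 and 82 counts. Mmp14, the membrane-bound protease that activates Mmp2, was unresolved at 0.545 (0.491 to 0.606). Timp3, an inhibitor bound to matrix, was 377-fold (104 to 3124) lower, and Adamts1, a proteoglycan-cleaving protease, 4.24-fold (3.81 to 4.73). Of the collagen-processing genes, 1 of 15 was higher, 5 were lower and 4 within 2-fold: Bmp1, the procollagen protease, stood 3.58-fold (3.22 to 3.98) higher, Serpinh1, the collagen chaperone, 2.87-fold (2.64 to 3.13) lower, and the cross-linker Loxl2 75.9-fold (25.3 to 373) lower.

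Endothelial and mural genes were lower in carcinoma without exception among those that passed the filter, all 26 endothelial genes (median -7.91) and all 14 pericyte genes (median -7.30, or -6.47 with thinned libraries), against 14.9% of all genes. Of these, 2 endothelial and 5 pericyte genes had 0 counts in carcinoma, passed the filter through stroma and had to be lower. Plvap, a diaphragm protein of fenestrated capillaries, had 23 counts in carcinoma, 4536 in stroma, 34 in GFP+ EpCAM- and 154 in GFP- EpCAM+, 380.3-fold (253 to 601) lower in carcinoma than in stroma. Ramp2, the adrenomedullin receptor partner, was 1394-fold (385 to 11524) lower, Cldn5, the claudin of vessels, 1032-fold (184 to 40825), and the transcription factor Sox18 983-fold (176 to 38921). Egfl7 was 93.6-fold (67.4 to 134) lower. Eng, the endoglin co-receptor, had the most carcinoma counts of those named, 599 against 1723 in stroma, and was 5.55-fold (5.05 to 6.10) lower. Among pericyte genes Rgs5, a regulator of G protein signals, had 4 and 1463 counts, 705-fold (275 to 2592) lower, Des, which encodes desmin, 1923-fold (344 to 76015), and the receptor Pdgfrb 246-fold (95.4 to 906). Notch3, the mural Notch receptor, was 47.4-fold (34.0 to 68.1) lower and Mcam 43.1-fold (32.2 to 59.0).

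Contractile genes were mostly lower in carcinoma or within 2-fold. Of 14 passing the filter 7 were lower, 0 higher, 5 within 2-fold and 2 unresolved (median -3.23, or -1.03 with at least 100 counts and -2.53 with no filter). Myl9, a myosin light chain, had 3 counts in carcinoma and 905 in stroma and was 582-fold (198 to 2826) lower, Tagln, an actin-binding protein, 246-fold (119 to 613), and Myh11, the smooth muscle myosin, with 0 and 322 counts, at least 207-fold. Flna, Actn1, Cnn2 and Smtn, actin cross-linking and binding proteins, were within 2-fold at 1.31 (1.21 to 1.43), 0.769 (0.705 to 0.839), 0.999 (0.912 to 1.10) and 1.11 (0.931 to 1.32). The Myl9 promoter is shown because it holds a CArG box, the element of serum response factor. It lies at chr2:156775214-156775513 on the plus strand of GRCm38.p6, from RefSeq, with the box in capitals.
Myl9: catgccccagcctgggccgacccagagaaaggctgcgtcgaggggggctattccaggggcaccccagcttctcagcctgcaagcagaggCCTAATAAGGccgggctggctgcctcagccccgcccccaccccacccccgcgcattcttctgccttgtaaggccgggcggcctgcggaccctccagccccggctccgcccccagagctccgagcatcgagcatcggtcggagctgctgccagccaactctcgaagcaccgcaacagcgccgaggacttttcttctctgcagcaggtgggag
The box was found on either strand in 3 of 11 contractile genes with a promoter in the table, Myl9, Cnn2 and Vcl, of which only Myl9 was lower. It occurred in 1.75% of all genes of the comparison with a promoter and in 1.63% of all promoters. The share was 3.89% of genes lower in carcinoma and 1.56% of those higher.

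Leukocyte-type transcripts in the stroma library came with some of its largest folds. Of 18 leukocyte genes 17 were lower in carcinoma and 1 unresolved (median -4.34), and all 10 basophil and mast cell genes were lower (median -6.86, between -7.91 and -5.92 with other filters). Of these, 4 leukocyte and 6 basophil and mast cell genes had 0 counts in carcinoma. They passed the filter through stroma and had to be lower. Ccl4, a chemokine, had 3 counts in carcinoma, 5957 in stroma, 1 in GFP+ EpCAM- and 233 in GFP- EpCAM+, 3829-fold (1309.6 to 18573) lower in carcinoma than in stroma. Its neighbour Ccl3 had 0, 3533, 0 and 158 counts in the same order, at least 2271-fold lower. Hdc, the histamine-forming enzyme of basophils and mast cells, had 0 and 1831 counts in carcinoma and stroma, at least 1177-fold lower. The cytokine genes Il13 and Il4, both known from those cells, were at least 427-fold and at least 239.8-fold lower, Osm, the cytokine oncostatin M, at least 395-fold, and the basophil protease Mcpt8 60.6-fold (31.5 to 134) on 9 and 283 counts. Csf2rb, the shared receptor chain for IL-3 and GM-CSF, and its near-identical copy Csf2rb2 were 1716-fold (307 to 67865) and 1104-fold (305 to 9127) lower, and reads of this pair may have been divided between them. Cyp11a1, the first enzyme of steroid synthesis, was at least 360.0-fold lower. The myeloid genes Tyrobp and Fcer1g, signalling adaptors, were 39.2-fold (22.0 to 76.9) and 59.0-fold (24.7 to 184) lower. Cd68, a lysosomal protein of macrophages, was unresolved at 0.541 (0.403 to 0.727), with 97 counts in carcinoma. These genes were thus found in a sort gated against CD45, in which Ptprc had 29 counts.

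Other genes with very large folds on the stroma side were of mixed tissues. Gpx3, a secreted peroxidase, had 4 counts in carcinoma, 1915 in stroma, 3 in GFP+ EpCAM- and 1841 in GFP- EpCAM+, 923-fold (360.0 to 3392) lower in carcinoma than in stroma and high in both GFP- sorts. Ifitm1, an antiviral membrane protein, was 1761-fold (315 to 69617) lower. Serpina1b, an antitrypsin gene with near-identical copies and therefore uncertain, had 0 and 919 counts, at least 591-fold lower. All 7 fat cell genes were lower (median -7.74, or -6.91 with thinned libraries), led by the fatty acid carrier Fabp4 at 267-fold (179 to 417) and the fatty acid transporter Cd36 at at least 138-fold, both of which endothelium also makes. Of 9 skeletal muscle genes 7 were lower and 2 unresolved (median -5.47, or -6.34 with at least 100 counts). Among these lists 2 fat cell and 5 muscle genes had 0 counts in carcinoma and so had to be lower. The muscle actin Acta1 had 2 and 730 counts, 704-fold (194 to 5823) lower, and creatine kinase, Ckm, 0 and 180, at least 116-fold. Of 3 Schwann cell genes 2 were lower, among them Pmp22, a myelin protein, at 5.97-fold (4.45 to 8.11), and Mbp was within 2-fold at 0.868 (0.608 to 1.25).

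Ligands and receptors of growth factors lay on both sides. Of 29 ligands 8 were higher in carcinoma, 10 lower, 4 within 2-fold and 7 unresolved, with a median of 0.01 that became -0.05 with DESeq2 scaling, 0.72 with at least 100 counts and -0.95 with no filter, and of 41 receptors 7 were higher, 16 lower, 4 within 2-fold and 14 unresolved (median 0.26). Vegfa, higher in carcinoma as given above, has the receptors Kdr and Flt1, which had 3 and 39 counts in carcinoma and 153 and 209 in stroma, 98.3-fold (33.0 to 482) and 10.3-fold (7.31 to 14.9) lower. Its co-receptor Nrp2 was within 2-fold at 1.20 (1.02 to 1.40). Ligand and signalling receptors of this pathway were thus called on opposite sides. Pdgfa was within 2-fold at 1.29 (1.15 to 1.45), on 1062 and 426 counts, and its receptor Pdgfra was higher in carcinoma. Hbegf, a ligand of the EGF receptor family, was 3.42-fold (3.05 to 3.85) higher, on 2210 and 335 counts, and the Wnt ligands Wnt7a and Wnt7b were 17.3-fold (5.75 to 85.2) and 5.71-fold (4.25 to 7.85) higher. Igf2, a fetal growth factor, had 1 and 280 counts, 540.0-fold (96.1 to 21402) lower, and Gdf15, a stress cytokine, 0 and 162, at least 104-fold. Cxcr4, the receptor of Cxcl12, was 195-fold (34.2 to 7768) lower on 1 and 101 counts, so ligand and receptor lay on the same side. Cd44, a receptor for osteopontin and hyaluronan, was 3.51-fold (2.77 to 4.49) higher, and Spp1 was higher too. The integrin chains Itgav and Itgb5, on the same receptor list, were not called higher. Axl, a receptor tyrosine kinase, and Sdc1, a proteoglycan co-receptor, were 2.40-fold (2.06 to 2.81) and 3.54-fold (3.02 to 4.18) higher. Notch4, an endothelial Notch receptor, was 242-fold (66.3 to 2009) lower.

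Integrins were split. Of 11 passing the filter 2 were higher, 4 lower, 3 within 2-fold and 2 unresolved (median -0.51, or 0.56 with at least 100 counts). Itga3, a laminin-binding chain, was 4.43-fold (3.97 to 4.95) higher, as was Itgb4, given above. Itga5, the fibronectin-binding chain, was 6.75-fold (3.82 to 12.6) lower on 16 and 56 counts although Fn1 itself was higher in carcinoma, Itga7 4.07-fold (3.10 to 5.38) and Itga9, with 0 and 31 counts, at least 19.9-fold. Itgb1, the chain common to many pairs, was within 2-fold at 1.36 (1.25 to 1.47). Among S100 and annexin genes, 5 of 16 were higher, 1 lower and 6 within 2-fold (median 0.86): S100a6 had 16183 counts in carcinoma and 2034 in stroma, 4.13-fold (3.94 to 4.32) higher, its relative S100a10 2.70-fold (2.52 to 2.89), and S100a13 was 2.72-fold (2.31 to 3.20) lower. Among 11 YAP targets 2 were higher, 1 lower and 2 within 2-fold, with Cyr61, a matricellular target, at 1.04 (0.971 to 1.12) beside Ankrd1, given above, and Crim1 6.85-fold (4.50 to 10.7) lower.

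**Figure D4:**
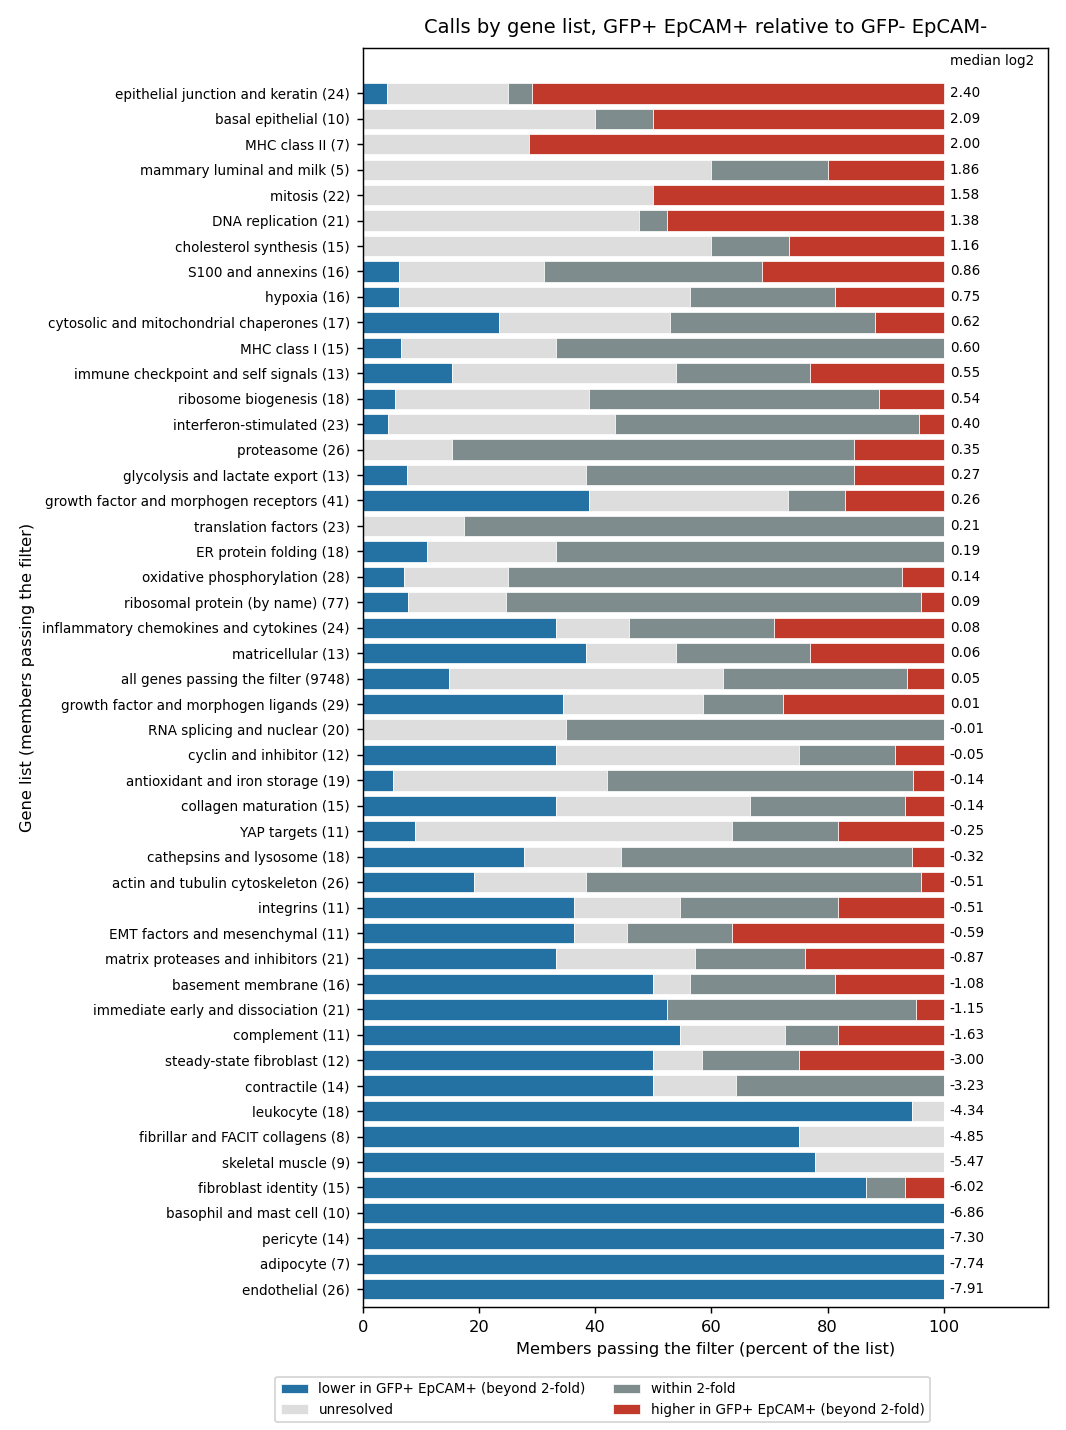
Share of each gene list (x axis, percent of the members passing the filter, their number in parentheses) that was lower, unresolved, within 2-fold or higher in carcinoma, ordered by the median log2 ratio printed at the right, for lists with at least 5 members. Endothelial, adipocyte, pericyte and basophil lists were lower throughout, the epithelial list was mostly higher, and translation factors and oxidative phosphorylation were mostly within 2-fold.

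The machinery common to all cells was mostly within 2-fold. Of 23 translation factors 19 were within 2-fold and 4 unresolved, and none was called in either direction (median 0.21). The elongation factor Eef2 had 6080 counts in carcinoma and 2925 in stroma, or 2449.6 and 2273 CPM, a ratio of 1.08 (1.03 to 1.13), and Eif5a was at 1.11 (1.05 to 1.18). Of 77 ribosomal protein genes 55 were within 2-fold, 3 higher, 6 lower and 13 unresolved (median 0.09). Rplp1 stood at 1.15 (1.11 to 1.18) and Rpl4 at 1.40 (1.35 to 1.45). Rps2 was 82.8-fold (63.1 to 111) lower, on 53 counts in carcinoma against 2277 in stroma, 3920 in GFP+ EpCAM- and 1806 in GFP- EpCAM+. Processed pseudogenes of Rps2 could take its reads, and the value is uncertain. Of 28 respiratory chain genes 19 were within 2-fold, 2 higher and 2 lower (median 0.14), with the ATP synthase chains Atp5b and Atp5a1 at 1.33 (1.25 to 1.41) and 1.32 (1.21 to 1.44). The complex I subunit Ndufb9 was 3.46-fold (3.14 to 3.82) higher and the complex III subunit Uqcrb 9.12-fold (4.70 to 19.4) lower on 11 and 52 counts.

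Protein turnover, folding and splicing genes were also mostly within 2-fold. Of 26 proteasome genes 18 were within 2-fold, 4 higher, 0 lower and 4 unresolved (median 0.35), with Psmb4 and Psmb1 at 1.21 (1.12 to 1.31) and 1.27 (1.16 to 1.38) and Psma2 3.38-fold (2.83 to 4.07) higher. Of 20 splicing genes 13 were within 2-fold and 7 unresolved, with none called in either direction and a median of -0.01 that became 0.10 with total-count scaling and 0.03 with thinned libraries. Hnrnpk, an RNA-binding protein, stood at 0.967 (0.875 to 1.07) and Ptbp1, a splicing repressor, at 1.14 (1.02 to 1.28). Of 18 ER folding genes 12 were within 2-fold and 2 lower, with the chaperones Hspa5 and Calr at 1.19 (1.12 to 1.27) and 1.55 (1.47 to 1.63), and Xbp1, a factor of the unfolded protein response, 3.35-fold (2.91 to 3.85) lower. At 500 or more summed counts, where 58.2% of all genes were within 2-fold, this held for 18 of 19 translation factors, 16 of 19 respiratory genes, 15 of 21 proteasome genes, 9 of 11 splicing genes, 9 of 10 ER genes and 49 of 63 ribosomal protein genes.

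Chaperones were divided. Of 17 cytosolic and mitochondrial chaperones 6 were within 2-fold, 2 higher, 4 lower and 5 unresolved (median 0.62). Hsp90ab1, the constitutive HSP90, was within at 1.54 (1.46 to 1.62) on 5997 and 2021 counts. Hspa1a, the inducible HSP70, had 7 counts in carcinoma, 395 in stroma, 7 in GFP+ EpCAM- and 599 in GFP- EpCAM+. The small heat shock protein gene Hspb1 had 9, 385, 22 and 335 in the same order. Both were low in the GFP+ sorts and high in the GFP- sorts, Hspa1a being 109-fold (52.3 to 272) and Hspb1 82.5-fold (43.0 to 182) lower in carcinoma than in stroma. Dnajb1, the co-chaperone of HSP70, was 2.72-fold (2.20 to 3.38) lower, and the mitochondrial chaperonin Hspd1 2.92-fold (2.40 to 3.58) higher.

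Immediate early genes, which dissociation of tissue is known to induce, were high in both libraries and otherwise lower in carcinoma. Of 21 members 9 were within 2-fold, 11 lower and 1 higher (median -1.15). Fos had 6116 counts in carcinoma and 4044 in stroma and stood at 0.784 (0.754 to 0.816), Ier3 at 0.800 (0.769 to 0.832) and Atf3 at 1.63 (1.54 to 1.74). Nr4a1, an orphan nuclear receptor, was 5.27-fold (4.86 to 5.71) lower, Btg2, an antiproliferative gene, 6.46-fold (5.42 to 7.74), Gadd45b 4.81-fold (4.33 to 5.34) and Junb 2.22-fold (2.11 to 2.34). Fosl1, a Fos relative, was the 1 member higher, 6.42-fold (5.23 to 7.96) on 1226 and 99 counts.

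Cytoskeleton, iron storage and lysosome genes stood near the share of all genes. At 500 or more summed counts 15 of 23 actin and tubulin genes, 6 of 10 antioxidant and iron genes, 7 of 10 cathepsin and lysosome genes and 2 of 3 ribosome biogenesis genes were within 2-fold, against 58.2%. Of 26 actin and tubulin genes 15 were within 2-fold, 5 lower, 1 higher and 5 unresolved (median -0.51). Actb and the actin-severing Cfl1 stood at 0.582 (0.566 to 0.598) and 0.592 (0.568 to 0.616), and Ezr, which encodes the epithelial membrane linker ezrin, was 5.83-fold (5.05 to 6.76) higher on 2305 and 205 counts. Tmsb4x, which binds monomeric actin, was 2.30-fold (2.19 to 2.42) lower. Of 19 antioxidant and iron genes 10 were within 2-fold, 1 higher and 1 lower (median -0.14, or 0.11 with at least 100 counts). The ferritin chains parted, Fth1 at 1.65 (1.60 to 1.70) and Ftl1 4.08-fold (3.68 to 4.53) lower on 540 and 1142 counts; Fth1, Ftl1 and Actb have processed pseudogenes that could take reads. Of 18 cathepsin and lysosome genes 9 were within 2-fold, 1 higher and 5 lower (median -0.32). The proteases Ctsl and Ctsd stood at 0.995 (0.937 to 1.06) and 1.20 (1.11 to 1.30), Ctsh was 4.64-fold (3.66 to 5.95) higher, and Ctsk, a collagen-degrading cathepsin, had 2 and 132 counts, 127-fold (34.5 to 1062) lower. Of 18 ribosome biogenesis genes 9 were within 2-fold, 2 higher and 1 lower (median 0.54), with the nucleolar protein Npm1 3.30-fold (3.00 to 3.64) higher.

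**Figure D5:**
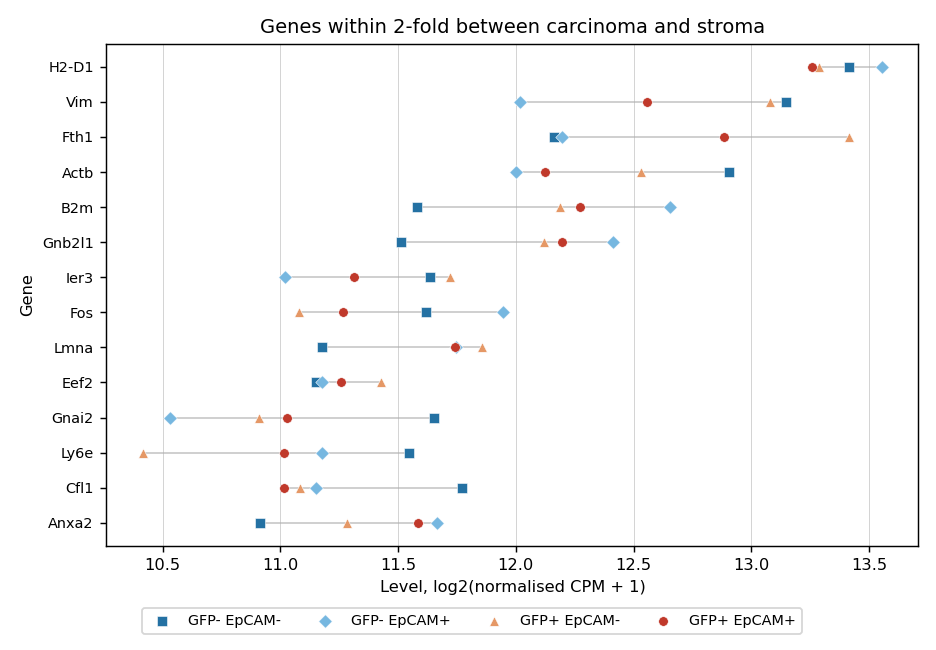
Level (x axis, log2 of normalised CPM plus 1) in the 4 sorts of genes among the 15 within-2-fold genes with the highest level in the lower of the compared libraries, 1 row per gene and 1 point per library. The carcinoma and stroma points of Eef2 nearly coincide, and those of Actb and Cfl1 lie farthest apart.

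The abundant shared genes in that plot spanned several functions. H2-D1, B2m, Vim, Actb, Cfl1, Fth1, Ier3, Fos and Eef2 are described above. Others were the nuclear lamin Lmna at 1.48 (1.42 to 1.54), the ribosome-bound scaffold Gnb2l1 at 1.61 (1.55 to 1.67), the inhibitory G protein subunit Gnai2 at 0.649 (0.623 to 0.677), the surface protein Ly6e at 0.692 (0.664 to 0.722) and the membrane-binding annexin Anxa2 at 1.59 (1.52 to 1.67). Eef2 had 2449.6 CPM in carcinoma, 2273 in stroma, 2756 in GFP+ EpCAM- and 2311 in GFP- EpCAM+. Actb differed most of the genes plotted, with 4465, 7675, 5917 and 4102 CPM in the same order.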

How the data were processed

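The deposited table gives each gene symbol a whole number of counts, without normalization. The authors named bcl2fastq, cutadapt, STAR, HTSeq, DESeq2 and mm10, per the submitters' processing notes, with no role or version. Libraries, per the labels' protocols, read transcript 3' ends and carried molecular identifiers. Whether reads were collapsed by identifier, strand handling and the treatment of shared reads are not stated, so counts may hold amplification duplicates and gene families are uncertain.

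Groups came from the labels, and columns were matched by name. Date-like names (21 of 13257, between 0.156% and 0.198% of a library's counts) were left out. Ribosomal protein genes took 8.55% to 14.2%. Counts were scaled by TMM over the 4 libraries (edgeR 4.0.16, R 4.3.3), and the ratio was given an exact 95% Clopper-Pearson interval, taking the summed count as fixed (Python 3.11.15 with scipy 1.17.1). A 0 was set to 3 counts per library, and list medians hold such bounds. No test across samples was possible with 1 library a group.

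Genes named are the 15 with the highest, the 15 with the lowest and the 15 shared by bound or level, leaving out predicted, pseudogene and ribosomal names. To these come, for each of 48 lists, the 4 members at most with the largest counts, 3 more at most by ratio in each direction, cell type markers and receptors of named ligands. A few genes that meet these criteria are not reported here. The comparison, the lists and the markers were chosen with earlier results of these data known. Symbols matched the reference for 96.8% of genes (9434), positions are from its GRCm38 annotation and promoters from RefSeq. The procedure was tested on simulated counts, and 8 alternative settings were run.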

Additional observations from a re-analysis of the deposited data

Results flagged for a closer look

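Genes of the lists used here that stood at least 4-fold above both compared libraries, by the whole counting interval, in the GFP- EpCAM+ sort, which is outside the comparison, are given as values. Krt19, a keratin of simple epithelia, had 3534 counts there, 675 in carcinoma and 90 in stroma, and Cldn7, a claudin, 238, 32 and 16. Milk and luminal genes were Areg with 1234 counts, the whey acidic family gene Wfdc18 with 750, lactoferrin, Ltf, with 542, lactalbumin, Lalba, with 76, the luminal transcription factor Foxa1 with 61 and the prolactin receptor Prlr with 42. Others were the heparin-binding ligand Ptn with 401 counts, the sorting adaptor Ap1m2 with 80, the receptor Fgfr2 with 79 and the transcription factor Sox10 with 74. Wfdc18 had 7 counts in stroma and 0 in carcinoma, and Fgfr2 2 and 0.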

How the results depend on the processing

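The calls by the 2-fold rule were 624 higher, 1452 lower and 3085 within. A 4-fold rule gave 132 higher, 958 lower and 6710 within, so that 12.1% of the directional calls were higher in carcinoma against 30.1%, and a filter of at least 100 counts gave 488 higher and 711 lower, or 40.7%, on 5770 genes. The other 6 settings (DESeq2 size factors, total counts, factors from the 2 libraries alone, ribosomal protein genes left out, no count filter, libraries thinned to 1338608 counts) gave 566 to 749 higher, 1354 to 1994 lower and 2721 to 3128 within. Total-count scaling moved the median of all genes by 0.11 on the log2 scale, and DESeq2 factors by -0.06. Of the 436 named genes, 380 had a value with at least 100 counts, 426 without ribosomal protein genes, 431 in thinned libraries and all 436 elsewhere. Among those with a value none changed direction after a call. Of the genes called higher or lower, 79 lost that call under the 4-fold rule and at most 4 under any other setting. With total-count scaling 8 genes called within 2-fold lost that call, and 18 unresolved genes were called higher or lower. Both numbers were the largest of any setting.

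Medians of the lists that changed sign were, with at least 100 counts, steady-state fibroblast (0.47), EMT (0.34), cyclins (0.67), antioxidants (0.11) and integrins (0.56), and, with no filter, matricellular (-0.81), inflammatory (-0.14) and ligands (-0.95). With thinned libraries YAP targets (0.04) and splicing (0.03) did so. The same held for ligands (-0.05) with DESeq2 size factors, and for cyclins (0.07) and splicing (0.10) with total-count scaling. The cause was not tested.

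No paired analysis was possible because each group has 1 library, which also leaves no replicate to leave out. A gene at 0 counts in stroma was set to 3. The size of the fold is not settled for genes with 1 or 2 counts there, such as Ccnf, Ovol1, Tmem184a and Pdgfra. Nor is it for genes with 1 or 2 counts in carcinoma, such as Igf2, Cxcr4 and Acta1. Des, Ifitm1, Csf2rb, Cldn5, Sox18 and Nid1 have intervals as wide as that of Igf2, and their folds are not settled either.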
